A study of Mus musculus with 4 samples.

Results

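Oxidative phosphorylation subunits were followed through adrenalectomy and the first day after a single dose of cortisol in mouse skeletal muscle. The members were all probe sets whose only gene symbol began with Nduf, Uqcr or Atp5, was Sdha to Sdhd, or began with Cox4, Cox5, Cox6, Cox7 or Cox8. This gave 98 of 12422 probe sets, which stood for 71 of 8251 genes. By complex there were 42 probe sets of 31 genes for complex I, 4 of 4 for complex II, 7 of 7 for complex III, 23 of 15 for complex IV and 22 of 14 for complex V. The symbols Ndufaf1, Ndufaf4 and Cox7a2l name factors that help build the complexes rather than lasting subunits, and they were kept with complexes I and IV. Another 10 probe sets that carried a member symbol beside a second symbol were left out.

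The tissue was gastrocnemius, the large and mainly fast muscle of the calf. Its RNA was hybridized to 4 Affymetrix MG-U74Av2 arrays, 1 per group. The groups were intact mice, mice adrenalectomized 1 week earlier, and adrenalectomized mice given 0.1 mg of cortisol by intraperitoneal injection either 3 h or 24 h before dissection. Each array carried RNA pooled from 10 mice, so a difference between groups is a difference between 2 pools, with no replicate and no test. The labels gave no strain, sex or age, no vehicle injection, and no interval after surgery for the injected groups. No group was labelled as sham-operated. The values are MAS 5.0 signals scaled to the same trimmed mean of 500 on every array, and those below a floor of 100 were set to it before log2 ratios were taken. In whole tissue, fewer cells of a type and less RNA per cell cannot be told apart.

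Oxidative phosphorylation takes place in the inner mitochondrial membrane. Complexes I and II take electrons from NADH and succinate and pass them through ubiquinone to complex III, cytochrome c and complex IV, which reduces oxygen. Complexes I, III and IV pump protons, and complex V, the ATP synthase, uses the gradient to make ATP. Most subunits are encoded in the nucleus, and their genes are known targets of the transcription factor NRF1, of ETS family factors and, in muscle, of the coactivator PGC-1alpha, the product of Ppargc1a. Slow oxidative fibres hold more mitochondria than fast glycolytic ones.

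Some member promoters carry the palindromic NRF1 site of 10 bases, and the 4 that hold it before the start site are shown because this factor is known to join the complexes in a shared programme. The sequences are those of RefSeq on GRCm38.p6, each is 60 bases long and is written 5′ to 3′ on the strand of its gene, and capitals mark the site. The Ndufaf4 stretch is chr4:24897945-24898004 on the plus strand. Those of Cox6a1, chr5:115349086-115349145, Atp5k, chr5:108434415-108434474, and Atp5g2, chr15:102671055-102671114, lie on the minus strand.
Ndufaf4: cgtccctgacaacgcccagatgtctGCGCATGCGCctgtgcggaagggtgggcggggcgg
Cox6a1: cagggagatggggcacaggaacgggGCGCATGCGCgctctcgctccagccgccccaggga
Atp5k: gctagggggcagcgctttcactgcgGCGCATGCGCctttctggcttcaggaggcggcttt
Atp5g2: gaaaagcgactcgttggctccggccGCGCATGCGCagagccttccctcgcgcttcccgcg

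The site began 113 bases before the annotated start in Ndufaf4, 162 in Cox6a1, 50 in Atp5k and 42 in Atp5g2. Windows from 250 bases before to 50 after the start were found for 58 of the 71 genes, as 63 promoters. On either strand the full NRF1 site, printed in capitals above, occurred in 5 of the 63, or 7.94%, against 0.971% of all 32851 promoters and 1.70% of those of genes on the array with 1 symbol. The fifth was that of Uqcrc1, a core gene of complex III. The shorter core GCATGCGC, which every such site contains, occurred in 15.9% of member promoters, 2.71% of all promoters and 4.51% of those of array genes. The ETS core CCGGAAG occurred in 25.4%, 8.86% and 14.4%. The full palindromic glucocorticoid response element, a motif chosen after the values had been seen, occurred in 0 of the 63 and in 3 of the 32851. These matches describe letters in a window and say nothing about binding. The 250 bases before the start had a median GC content of 57.6% in members and 52.4% in all promoters. The shares were not matched for it, and its part in them was not tested.

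Of the 98 probe sets, 79 reached the floor on at least 1 array and 52, of 50 genes, had a mean signal of at least 2000, called bright here. Bright probe sets were 53.1% of the members and 7.37% of all probe sets. The 4 genes with no probe set at the floor were Cox5a, Cox8a, Ndufa12 and Ndufc2, and signals of different probe sets are not compared as levels. The highest member signal was 23114 for Cox6a2 on the 24 h array, and the highest of any probe set on any array was 36007. Whether such signals were compressed was not tested.

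Across the 4 arrays the bright members differed little. The highest signal was a median of 1.10 times the lowest over the 52 bright members, and 1.16 times over the 863 bright probe sets that were not members. A difference of less than 5 to 4, which is 0.32 on the log2 scale and the smaller limit used throughout, was seen for 49 of 52 members, or 94.2%, and for 74.3% of the others. Members and others shared only the lower limit of mean signal and were not matched above it. Whether a difference in signal had a part in these gaps was not tested. Atp5a1, the catalytic-head alpha subunit of the ATP synthase, read 16186 in intact mice, 15706 after adrenalectomy, 15826 at 3 h and 15298 at 24 h. Uqcrc1 read 10796, 10209, 10488 and 10659 in the same order, and Ndufv1, the flavin-binding subunit at the entry of complex I, read 10804, 10029, 10016 and 10216. The highest reading of each was at most 1.08 times the lowest. The members past that limit were Ndufb3, with a highest signal 1.52 times the lowest, Ndufa5, with 1.43 times, and Sdhc, just past it.

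**Figure D1:**
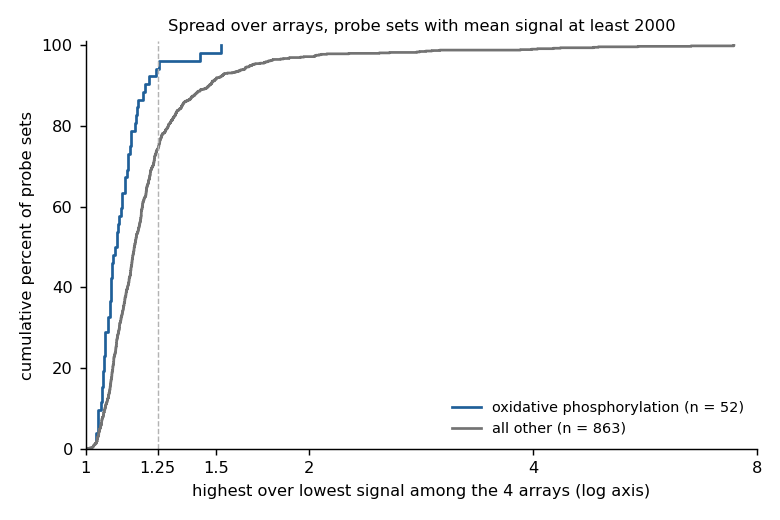
Cumulative percent of probe sets (vertical axis) against the highest over the lowest signal among the 4 arrays (horizontal log axis), for 52 oxidative phosphorylation probe sets and 863 others with a mean signal of at least 2000. At a ratio of 5 to 4, marked by the dashed line, the members had reached 94.2% and the others 74.3%.

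The error of a log2 ratio within the data was estimated from 50 other genes with a pair of bright probe sets, and it holds no variation between mice or pools. Its SD was 0.12 between the adrenalectomized and intact arrays. Against the adrenalectomized array it was 0.15 at 3 h and 0.21 at 24 h. Most of the member ratios given below are of that size or smaller.

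Adrenalectomized mice were set against intact ones, where surgery and the loss of adrenal hormones cannot be told apart. Most bright members of each complex read slightly lower without adrenals. The median log2 ratio was -0.07 over the 79 members at the floor and -0.07 over the 52 bright ones, against 0.01 over all probe sets and -0.02 over bright probe sets that were not members. Of the 52 bright members 45 were below 0, or 86.5%, against 58.4% of the other bright probe sets. The sizes were small, and 0 of the 52 were past a log2 ratio of 0.32 in size, against 4.63% of the other bright probe sets. Over all members at the floor 7 of 79, or 8.86%, were past 0.32, against 20.9% of all probe sets. Of these 5 were higher and 2 lower, against 11.9% and 8.96% of all probe sets, and 1 member, or 1.27%, was past 1.5-fold against 5.18%. The 7 all had mean signals under 2000. Bright probe sets were 53.1% of the members and 7.37% of all probe sets. The shares of all members and of all probe sets are therefore not compared at like signal, here or at 3 h and 24 h. Bright members and other bright probe sets were not matched for signal above the bright limit either. The median of bright members stayed negative in each of the 4 other scalings, between -0.13 with median scaling and -0.01 with ribosomal protein scaling. The number below 0 ranged from 50 with median scaling to 31 with ribosomal protein scaling, where 37.3% of the other bright probe sets were below 0.

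By complex, the medians after adrenalectomy were -0.09 over 33 probe sets of complex I and -0.08 over 7 of complex III, and both were negative in each setting tried. The median was -0.06 over 20 probe sets of complex V, also negative throughout. It was -0.02 over 4 of complex II and within 0.01 of 0 over 15 of complex IV, and these 2 became positive with quantile normalization and with scaling to ribosomal proteins or to other bright probe sets. The 8 bright probe sets of complex IV had a median of -0.04, and 6 of them were below 0. All 7 complex III probe sets were lower than in intact mice, with log2 ratios from -0.23 to -0.03. The lowest was Uqcr11, a small accessory subunit, which read 6169 in intact mice, 5273 after adrenalectomy, 5799.7 at 3 h and 5306 at 24 h. Uqcr10, another small subunit, read 7855, 7089, 7624 and 7468. In both the intact array was the highest and the adrenalectomized array the lowest. Uqcrb, which takes part in binding ubiquinone, was nearest to 0 with 8626, 8454, 8588 and 8311. Uqcrh, the hinge subunit near cytochrome c1, was the lowest of the complex in both later comparisons, with 6894, 6555, 6457 and 6157.

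In complex I the lowest bright members after adrenalectomy were Ndufa5 at -0.23 and Ndufa13 at -0.21. Ndufa13, an accessory subunit also known as GRIM-19, read 2902 in intact mice, 2509.9 after adrenalectomy, 2962 at 3 h and 2475 at 24 h, so the adrenalectomized and 24 h arrays were low and the other two high. Ndufs1, the largest iron-sulfur subunit, had a log2 ratio of -0.17, Ndufv1 one of -0.11, Ndufs3 one of -0.07 and Ndufv2 one of -0.03. In complex V, Atp5md, a small membrane subunit, was lowest among bright members at -0.24, with 15603, 13229.7, 14112 and 12548 on the 4 arrays. Atp5c1, the rotor stalk gamma subunit, was highest at 0.18 by its first probe set (8338 in intact mice and 9434 after adrenalectomy), but its second probe set gave -0.06.

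The array on which each member was highest or lowest was counted too. Of the 52 bright members 28, or 53.8%, were highest on the intact array, against 29.1% of the other bright probe sets. On the adrenalectomized array 18 were lowest (34.6% against 24.4%) and 4 highest (7.69% against 18.4%). On the 24 h array 19 were lowest and 11 highest, or 36.5% and 21.2% against 31.4% and 28.7%, so the share of lowest readings there was near that of the others. Only 4 were lowest on the intact array, 7.69% against 18.7% of the other bright probe sets. Over all 79 members at the floor, 34 were highest on the intact array, 43.0% against 21.9% of all probe sets, and 7 on the adrenalectomized, 8.86% against 23.3%. The shares highest at 3 h and 24 h, 20.3% and 27.8%, were nearer to those of all probe sets, 22.2% and 32.6%. This order depends on scaling, since with scaling to other bright probe sets 22 were highest on the intact array.

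**Figure D2:**
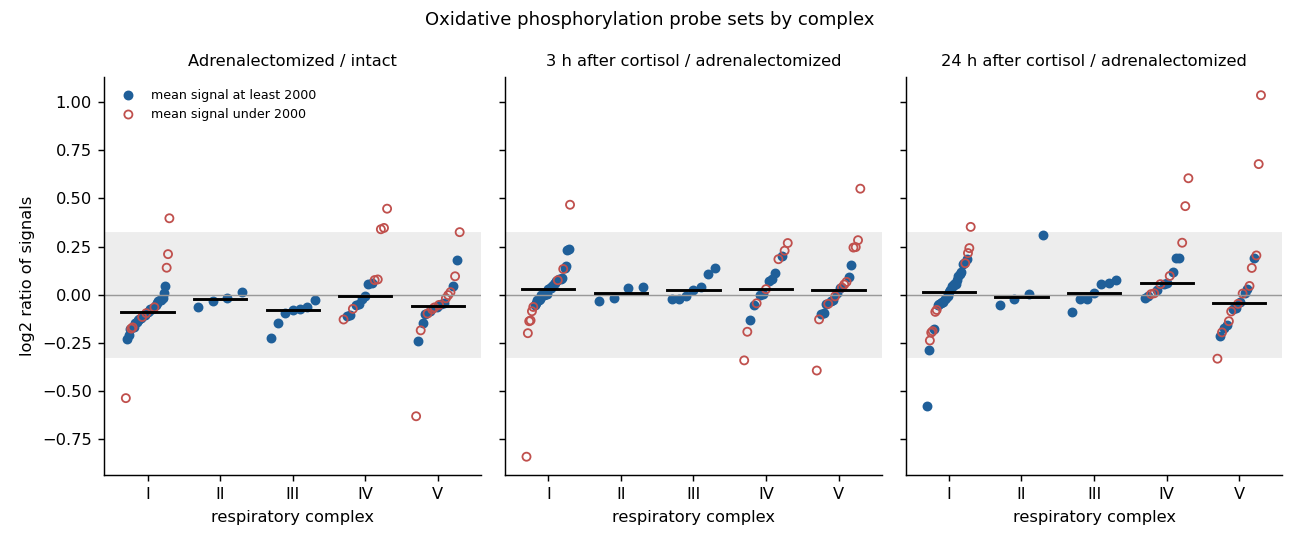
Log2 ratio of signals (vertical axis) for each oxidative phosphorylation probe set at the floor, by respiratory complex (horizontal axis), in the 3 main comparisons. Filled points have a mean signal of at least 2000 and open points less, bars are medians and the grey band is a ratio of 5 to 4; 1 filled point, Ndufb3 at 24 h (-0.58), lies outside the band.

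The array at 3 h after cortisol was compared with adrenalectomy alone, where injection and hormone cannot be told apart. The bright members had a median log2 ratio of 0.03, with a range from -0.13 to 0.24, against a median of 0.00 over the other bright probe sets. The number past 0.32 was 0 of 52 against 9.04%, although single bright probe sets elsewhere on the array reached log2 ratios of 2.70 and -2.04. Over the 79 members at the floor the median was 0.03, 5 were past 0.32 (6.33% against 27.2% of all probe sets; 2 higher and 3 lower, against 12.4% and 14.8%) and 1 past 1.5-fold (1.27% against 10.2%). The sign is not settled: with ribosomal protein scaling, which moved the all-probe-set median to -0.16, the median of the bright members was -0.11 and that of the other bright probe sets -0.14.

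The medians of complexes I to V at 3 h were 0.03, 0.01, 0.02, 0.03 and 0.02, and each became negative with ribosomal protein scaling, those of I and V also with other choices of probe sets. Ndufa13 had the highest ratio among bright members, 0.24, followed by Ndufa2 at 0.23, an accessory subunit that read 2650.4, 2519, 2957 and 2865 on the 4 arrays. Cox8b, the heart and muscle isoform of subunit 8 of complex IV, read 7195 in intact mice, 7084 after adrenalectomy, 8127 at 3 h and 8069 at 24 h. Its second, dimmer probe set read 1689.7, 1606, 1824 and 1936. By both probe sets the 2 arrays after cortisol were above the 2 arrays without it, at log2 ratios of 0.20 and 0.18 at 3 h and 0.19 and 0.27 at 24 h. Cox7a2l, a factor in the assembly of complexes III and IV into larger units, had the lowest bright ratio at 3 h, -0.13. At 3 h the ratios of Ndufa13, Ndufa2 and Cox8b were above the SD of 0.15 and that of Cox7a2l was smaller in size. At 24 h 1 of the 2 Cox8b ratios was above the SD of 0.21. Ndufa13, Ndufa2 and Cox7a2l were picked as extremes of the bright members, and among many ratios some pass an SD by error alone. The SD also holds no variation between pools, so passing it does not set any of these genes apart from error.

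The 24 h array was compared with adrenalectomy alone to show the later state. The bright members had a median log2 ratio of 0.01 and spread further, from -0.58 to 0.31. The number past 0.32 was 1 of 52, or 1.92%, against 12.4% of the other bright probe sets. Over all 79 members 7, or 8.86%, were past 0.32 against 29.6% of all probe sets. Of these 5 were higher and 2 lower, against 15.9% and 13.7% of all probe sets, and 3, or 3.80%, past 1.5-fold against 10.9%. The sign of the overall median turned with median and ribosomal protein scaling. Complex medians were 0.02 for I, -0.01 for II, 0.01 for III, 0.06 for IV and -0.04 for V. Those of complexes I to III changed sign in 2 or 3 settings each, that of complex IV became negative with ribosomal protein scaling alone and that of complex V positive when suffixed probe sets were left out. In complex IV 13 of 15 probe sets at the floor were above 0, where 51.8% of all probe sets were. In complex V 11 of 20 were below it, near the 48.2% of all probe sets.

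Ndufb3, an accessory subunit of the membrane arm of complex I, was the member that differed most among bright ones. It read 3567 in intact mice, 3499.8 after adrenalectomy, 3577 at 3 h and 2349 at 24 h. The 24 h array alone was low, at 1.49-fold below adrenalectomy and 1.52-fold below intact, and the other three lay within 1.02-fold. Its log2 ratio at 24 h, -0.58, stayed between -0.65 and -0.56 over the settings tried. It rests on 1 probe set and 1 array. The 250 bases before its start, chr1:58586147-58586396 on the plus strand of GRCm38.p6, are printed because it stands apart from the rest. They hold no NRF1 core, ETS core or muscle E-box CAGCTG (chosen after the values had been seen), so no letter is in capitals.
Ndufb3: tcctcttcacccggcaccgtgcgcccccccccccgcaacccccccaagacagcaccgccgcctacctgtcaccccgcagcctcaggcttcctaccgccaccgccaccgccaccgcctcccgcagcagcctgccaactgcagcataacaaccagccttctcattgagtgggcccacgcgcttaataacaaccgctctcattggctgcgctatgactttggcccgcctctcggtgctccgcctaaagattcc

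Further complex I members were lower at 24 h by smaller amounts. Ndufa5, an accessory subunit of the matrix arm, read 9458, 8079, 7853 and 6630.2 on the 4 arrays in the order used above. It was lower by a log2 ratio of -0.29 against adrenalectomy and -0.51 against intact, and its probe set carries a suffix that marks probes shared between transcripts. A suffix of this or another kind was carried by 13 of the 52 bright members. Among them were Atp5md, Atp5e, Cox6c, Uqcrb, both bright sets of Ndufb2 and the brighter set of Cox8b. Ndufa6, an accessory subunit with a mean signal just under 2000, read 1989.8, 1862, 1754 and 1579. Ndufc1, a small membrane subunit, read 7720.1, 7167, 7029 and 6342. In these 3 the intact array was highest and the 24 h array lowest, while Ndufb2, with 9935, 10259, 10518 and 11451 by its brighter probe set, ran the other way and by its second, with 7950.2, 7488, 7961 and 7786, had no such order. Ndufa10, an accessory subunit of moderate signal, was the highest of complex I at 24 h among probe sets with a mean signal of at least 500, by a log2 ratio of 0.22, with 729, 673, 738 and 782. The core subunits Ndufs1, Ndufs3, Ndufv1 and Ndufv2 had ratios by their bright probe sets between -0.05 and 0.03 at 24 h.

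Complex II, which is also the succinate dehydrogenase of the citrate cycle, differed little apart from 1 subunit. Sdhc, a membrane anchor that takes part in binding ubiquinone, read 7934 in intact mice, 8020.1 after adrenalectomy, 8203 at 3 h and 9953 at 24 h. Its log2 ratio of 0.31 against adrenalectomy was the highest of any bright member at 24 h and ranged from 0.24 to 0.33 over the settings tried. Its partner in the membrane, Sdhd, read 6138, 6072, 5943 and 6077. The flavin-bearing subunit Sdha read 2932, 2865, 2941 and 2765, and the iron-sulfur subunit Sdhb had a log2 ratio of -0.02 at 24 h. The other 3 subunits had log2 ratios between -0.05 and 0.00 on this array.

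In complex V at 24 h Atp5c1 had log2 ratios of -0.17 and -0.16 by its 2 bright probe sets, and Atp5e, the epsilon subunit of the stalk, one of -0.22 (5608, 5424, 5238 and 4669 on the 4 arrays). The peripheral stalk gene Atp5o had -0.07 and Atp5a1 -0.04. Atp5mpl, a small membrane subunit, was highest among bright members at 0.19, with 7857, 7321, 8141 and 8351. The ratios of Atp5c1, Atp5e and Atp5mpl kept their sign in each setting tried, and all were near or under the SD of 0.21.

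**Figure D3:**
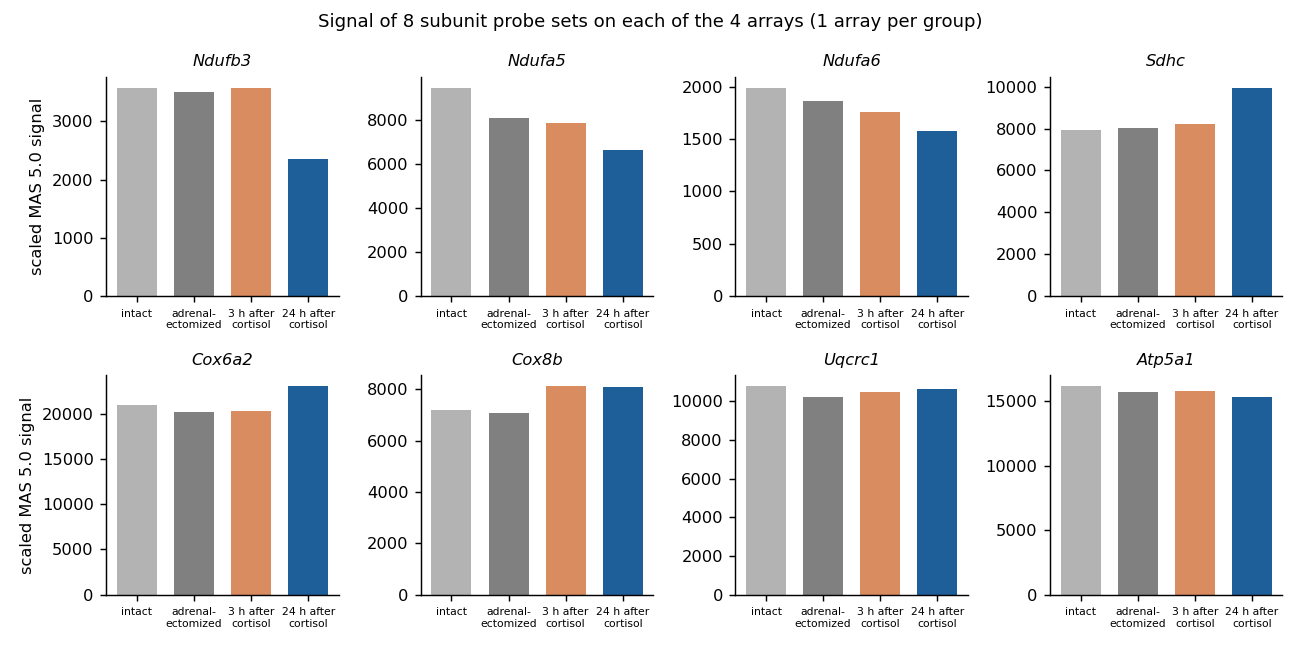
Scaled signal (vertical axis, from 0) of 8 subunit probe sets on the 4 arrays (horizontal axis), 1 array per group, so there are no error bars. Ndufb3 was low at 24 h alone (2349), Sdhc (9953) and Cox6a2 (23114) were highest at 24 h, and Uqcrc1 and Atp5a1 varied little.

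Complex IV has paired isoforms, one typical of heart and skeletal muscle and one found in most tissues. Cox6a2, the muscle isoform, read 20988 in intact mice, 20274 after adrenalectomy, 20342 at 3 h and 23114 at 24 h, while the ubiquitous Cox6a1 read 1698, 1790.2, 1736 and 1794. The Cox6a1 probe set carries a suffix for shared probes and had a mean signal of 1755, under the bright limit. At 24 h against adrenalectomy Cox6a2 was higher by a log2 ratio of 0.19 and Cox6a1 by 0.00, a difference of 0.19 that ranged from 0.14 to 0.19 over the settings. The other pair did not follow it. Cox7a1, the muscle isoform, read 3775, 3509, 3378 and 3469.6, and Cox7a2 read 8841, 8179.8, 8858 and 8517, so that the difference of muscle minus ubiquitous was -0.17 at 3 h and -0.07 at 24 h. The partner of Cox8b, Cox8a, was below the floor on all arrays. A difference between 2 ratios carries the error of both, and the differences given for these pairs are smaller than that error. Cox5b read 7509.8, 7487, 7909 and 7609, Cox6c read 16498, 17144, 17128 and 17051, and Cox7b 5889, 5678, 5964 and 6162.

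The region before the start of Cox8b is shown as that of the isoform whose readings after cortisol lay above the others by both probe sets. It is chr7:140900447-140900696 on the minus strand of GRCm38.p6, and capitals mark the E-box CAGCTG, a motif of myogenic factors that 6.35% of member promoters and 16.3% of all promoters held.
Cox8b: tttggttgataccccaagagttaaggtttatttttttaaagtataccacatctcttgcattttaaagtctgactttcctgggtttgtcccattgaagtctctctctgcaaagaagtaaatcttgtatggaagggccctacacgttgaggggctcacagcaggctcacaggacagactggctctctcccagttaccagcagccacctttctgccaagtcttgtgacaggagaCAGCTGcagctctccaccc

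Bright genes with an NRF1 or ETS core in the window, 13 in all, had medians slightly below those of the 26 with neither. These were -0.09 and -0.06 after adrenalectomy. At 3 h they lay within 0.01 of 0 for the first set and at 0.03 for the second. At 24 h the first set again lay within 0.01 of 0 and the second had 0.02. Against intact mice the medians were -0.09 and -0.02 at 3 h, and -0.12 and -0.06 at 24 h. These gaps were not tested.

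Apart from that of Ndufb3, all ratios past 0.32 in the main comparisons belonged to probe sets with a mean signal under 2000, and several were not repeated by a second probe set of the gene. Atp5g1, 1 of the genes for the proton-carrying ring of the ATP synthase, read 233, 151, 220.4 and 308 by 1 probe set, 1.55-fold lower after adrenalectomy and 2.05-fold higher at 24 h than after adrenalectomy. Its other probe set read 143, 137, 125 and 158, and Atp5g2, which encodes the same mature protein, read 1509.6, 1507, 1498 and 1514. Atp5d, the delta subunit, was higher at 24 h by a log2 ratio of 0.68 for a probe set at 182 and 291. Its 3 brighter probe sets had log2 ratios between -0.33 and -0.09. Those 3 and the Atp5g2 probe set carry a suffix for shared probes, and the Atp5d and Atp5g1 sets that differed most do not. Which of them reads its gene better was not tested. Cox4i1 read 186, 196, 172 and 269.9 by 1 probe set and 685, 626, 734 and 650.3 by the other. Ndufaf1 was 1.79-fold lower at 3 h by a probe set at 104 against 187, and differed by 0.08 on the log2 scale by its brighter one (923 and 972). Over the main comparisons 4 genes had probe sets that differed by more than 0.5 in log2 ratio, Atp5d, Atp5g1, Ndufa3 and Ndufaf1, and at least 1 of the sets in each had a mean signal under 500. Cox6b2, the testis isoform of subunit 6b, read 75.6, 136, 164 and 207, at least 2.07-fold higher at 24 h than in intact mice, and with a floor of 200 the log2 ratio was 0.05. Cox8c, another testis isoform, read 958, 1212, 957 and 1296 by 1 probe set, with the adrenalectomized and 24 h arrays high. Its other probe set, and the other sets of Cox6b2, were below the floor on all arrays.

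The remaining members at the floor stayed within 1.5-fold in all 3 main comparisons. In complex I Ndufa1 had log2 ratios of -0.54, 0.47 and 0.35 at signals from 119 to 172. In complex IV Cox6b1 had 0.35 after adrenalectomy at 243 and 309. In complex V Atp5pb, the b subunit of the peripheral stalk, read 267, 334, 254 and 292. The dimmer probe set of Ndufa3 had 0.40 after adrenalectomy, where the brighter had -0.13. Genes whose values are not given one by one had log2 ratios between -0.20 and 0.25.

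Lists of genes around the complexes varied. Their shares past 0.32 were below that of all probe sets in most comparisons and near or above it in others. Of 17 probe sets at the floor for the citrate cycle and pyruvate dehydrogenase, 1 was past 0.32 after adrenalectomy and 4 at 24 h, and of 16 at 3 h 1 was. These are 5.88%, 23.5% and 6.25%, against 20.9%, 29.6% and 27.2% of all probe sets. The medians were -0.06, -0.01 and -0.01 for adrenalectomy, 3 h and 24 h in turn. Idh2, the mitochondrial NADP-dependent isocitrate dehydrogenase, stood apart with 2891 in intact mice, 3394 after adrenalectomy, 2004 at 3 h and 1929 at 24 h, 1.69-fold and 1.76-fold lower after cortisol. A dim probe set of Idh3g was at least 1.68-fold higher at 24 h, and its bright one had a log2 ratio of 0.34. Mdh2, malate dehydrogenase, read 15091, 14992, 14992 and 15199. For cytochrome c and electron carriers 2, 3 and 2 of 11 probe sets were past 0.32 for adrenalectomy, 3 h and 24 h in turn. These are 18.2%, 27.3% and 18.2%, against 20.9%, 27.2% and 29.6% of all probe sets. Etfdh, which passes electrons from fatty acid oxidation to ubiquinone, read 1223, 1381, 1121 and 930.3. Dhodh, which feeds electrons to ubiquinone from pyrimidine synthesis, had a log2 ratio of -0.65 at 3 h by 1 probe set and -0.01 by the other. The brighter set of Cyc1, the cytochrome c1 subunit of complex III that the symbol rule leaves out, had log2 ratios of -0.05, 0.05 and 0.10, while its dimmer set had 0.37, -0.38 and 0.10. For nucleotide carriers, porins and mitochondrial creatine kinase 1, 2 and 4 of 9 were past 0.32 in the same order. These are 11.1%, 22.2% and 44.4%, against 20.9%, 27.2% and 29.6% of all probe sets. The muscle nucleotide carrier gene Slc25a4 read 21926, 22569, 22378 and 22591, and a dim pair of Slc25a5 probe sets gave opposite signs. Of the 4 assembly factor probe sets at the floor, 0 were past 0.32 in any main comparison. The medians of these lists were not recomputed under the other scalings.

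Among regulators of mitochondrial genes 1 of 11 probe sets was past 0.32 after adrenalectomy, 4 of 10 at 3 h and 1 of 11 at 24 h. These are 9.09%, 40% and 9.09%, against 20.9%, 27.2% and 29.6% of all probe sets. Ppargc1a read 157 in intact mice, 187 after adrenalectomy, 78.4 at 3 h and 125 at 24 h, so it was at least 1.87-fold lower at 3 h, and all 4 readings were near the floor. Ppara, a fatty acid receptor, was 2.29-fold higher at 3 h and equal to adrenalectomy at 24 h, and the uncoupling protein gene Ucp3 read 969, 1041, 1728 and 709.9 on the 4 arrays.

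Most markers of slow fibres were far lower after cortisol, and those of fast fibres differed little by their bright probe sets. For the fast fibre list 6.25%, 6.25% and 12.5% of 16 probe sets were past 0.32 in the 3 main comparisons. Among all probe sets 20.9%, 27.2% and 29.6% were. Those past it were dim probe sets of Myh4 and Ckm, with mean signals of 181 and 180. The bright ones all stayed within 0.32, where 4.63%, 9.04% and 12.4% of bright probe sets that were not members were past it. The summed signal of the fast fibre list ran from 286661 to 294199 over the arrays. Of 14 slow fibre probe sets 11 reached the floor, and all 11 were lower by more than 0.32 at 3 h, against 14.8% of all probe sets. Their median log2 ratio at 3 h was -1.91, where the bright subunit transcripts had theirs at 0.03. The summed signal of the slow fibre list was 85449 after adrenalectomy, 31660 at 3 h and 30727 at 24 h. At 24 h 10 of the 11 were lower by more than 0.32, against 13.7% of all probe sets. The exception, Csrp3, read 1470 after adrenalectomy, 1056 at 3 h and 1566 at 24 h. The slow fibre gene Mb, which encodes myoglobin, read 16017, 15394, 10645 and 10530. Whether a smaller share of slow fibres in the 2 pools after cortisol had a part in the lower readings of single subunits was not tested.

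**Figure D4:**
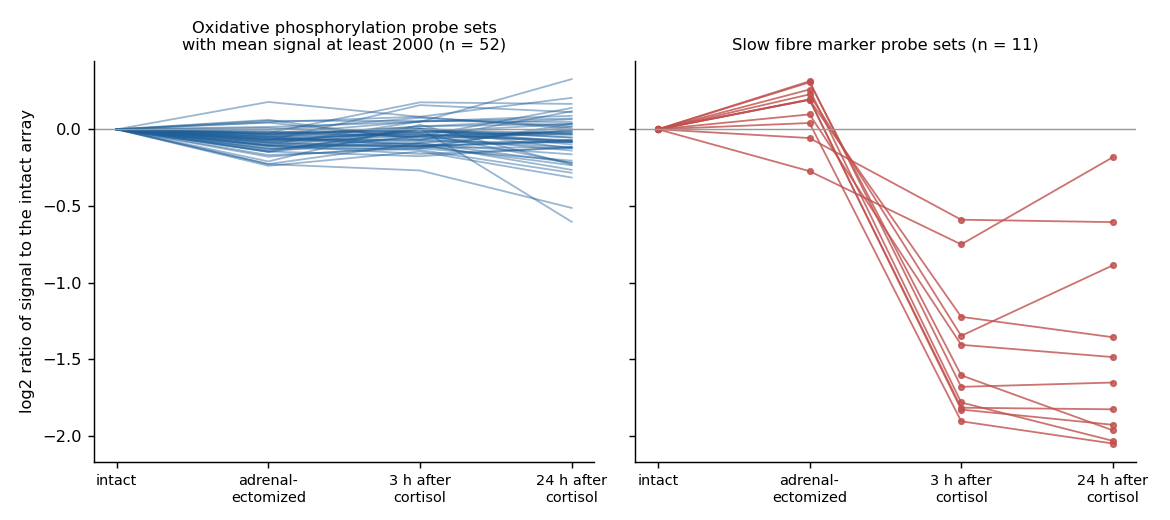
Log2 ratio of each signal to the intact array (vertical axis) on the 4 arrays (horizontal axis), for the 52 bright oxidative phosphorylation probe sets and the 11 slow fibre marker probe sets at the floor; each line is 1 probe set. The subunits stay between -0.60 and 0.33, while most slow fibre markers drop at 3 h and remain low at 24 h.

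Markers of other tissues also differed between arrays. The summed signal of 16 epidermis and hair probe sets was 1307, 1550.5, 10784 and 2949, with Krt5, Krt14 and Dsc2 below the floor on all arrays. That of 10 hepatocyte probe sets was 5169, 3394, 1745 and 1186, and that of 3 erythroid probe sets 6560.4, 8465, 9059 and 8228. White fat summed to 3172, 2526, 2352 and 2312, while its marker Fabp4 went the other way with 509, 576, 579 and 586. Of the brown fat markers, Ucp1 and Elovl3 were below the floor on all arrays, while Cidea read 129, 83.8, 170 and 104, at least 1.70-fold higher at 3 h than after adrenalectomy. The other brown fat marker, Cox8b, is itself a member. Of the cardiac markers Myh6 and Tnnt2 were below the floor on all arrays, Tnni3 reached 103 at 24 h alone, and Nppa read 258, 399.7, 225 and 307. The macrophage sum was lowest at 3 h, 1641 against 2087 after adrenalectomy, though the dimmer probe set of Csf1r read 371 against 228. The arrays also ran in 4 different fluidics modules, 1 per group, so that the effect of a group cannot be told apart from that of its pool or module, and the part of these shifts in the subunit ratios was not tested.

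Set against intact mice, the 24 h array read slightly low. The median of the bright members was -0.06, 36 of 52 were below 0, or 69.2% against 55.5% of the other bright probe sets, and 3 were past 0.32 (5.77% against 12.6%). These were Ndufb3 at -0.60, Ndufa5 at -0.51 and Sdhc at 0.33. All 7 complex III probe sets were below intact, with a median of -0.07. In complex IV 6 of the 8 bright probe sets were above intact and in complex V 7 of 9 were below. At 3 h against intact the bright median was -0.04 with 35 of 52 below 0, or 67.3% against 54.6% of the other bright probe sets, and at 24 h against 3 h it was -0.01. With scaling to other bright probe sets 26 of 52 were below 0 at 24 h, and the median at 3 h turned positive. These comparisons share arrays with the main ones and are not independent of them.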

How the data were processed

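Signal intensities of 4 arrays were used as deposited by the authors, who ran MAS 5.0 per the labels; its scaling settings are not stated there. The experiment records were used for the fluidics station, 3 for all arrays, and module. Each array was rescaled so that the mean of 12422 non-control probe sets, trimmed by 2% at each end, was 500. A ratio used probe sets at or above 100 on at least 1 of its 2 arrays. Symbols came from the platform annotation, where 10833 probe sets had 1 symbol, 396 several and 1193 none. Named genes were members past 1.5-fold, the highest and lowest of each complex in each main comparison (mean signal of at least 500), core subunits, isoform pairs, genes whose probe sets differed by more than 0.5, and pathway genes past 1.5-fold. Other members were named after their values had been seen. The members and lists were chosen with earlier results of these data known. With 1 array a group there was no test. Alternatives were 4 scalings (median, quantile, ribosomal proteins, other bright probe sets), floors of 50 and 200, and choices of probe sets. Python 3.11.15 with numpy 2.4.6 and pandas 2.3.3 was used, and the steps were tested on simulated data.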

Additional observations from a re-analysis of the deposited data

How the results depend on the processing

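No paired analysis was possible because each group had 1 array, and for that reason no array could be left out in turn. Counting Ndufa4 with complex IV was not run, since no probe set of it was analysed here. Medians near 0 that changed sign with a setting are given above and are not listed here. That of the bright members at 3 h, for example, was 0.03 as reported and -0.11 with ribosomal protein scaling. Of the summary values 414 stayed close to those reported, which did not require the same sign. The others moved as follows, where the cause was not tested unless the setting itself removes probe sets. Members highest on the adrenalectomized array numbered 4 with the brightest probe set a gene, with bright members alone and without suffixed probe sets, and 21 with ribosomal protein scaling. Those highest at 24 h were 13 with median scaling, 11 for bright members and 14 without suffixes. Those highest at 3 h were 9 for bright members and without suffixes, and 4 with ribosomal scaling. Those highest in intact mice were 22 with scaling to other bright probe sets. Lowest after adrenalectomy were 5 with ribosomal scaling, lowest at 24 h 15 without suffixes, and lowest at 3 h 11 with median scaling, 11 for bright members and 45 with ribosomal scaling. Lowest in intact mice were 5 with the mean of a gene's probe sets, 3 with median scaling, 4 for bright members, 2 without suffixes and 21 with scaling to other bright probe sets. Members past 0.32 after adrenalectomy were 4 with a floor of 200, median scaling, quantile normalization or no suffixes and 0 for bright members. At 24 h they were 14 with a floor of 50 and 1 for bright members, and at 3 h 2 with a floor of 200, 8 with a floor of 50 and 0 for bright members. Members past 1.5-fold after adrenalectomy were 0 with a floor of 200, ribosomal scaling or bright members, and 2 with a floor of 50 or median scaling. At 24 h they were 1 with a floor of 200, 6 with a floor of 50 and 0 for bright members. At 3 h they were 0 with a floor of 200, the brightest probe set, no suffixes or bright members, and 2 with a floor of 50. Bright members below 0 were 39 at 24 h with ribosomal scaling, and at 3 h 11 with median and 47 with ribosomal scaling. The log2 ratio of Atp5g1 minus that of Atp5g2 was -0.22 after adrenalectomy, 0.62 at 24 h and 0.15 at 3 h with a floor of 200. With the mean of a gene's probe sets it was -0.058 after adrenalectomy and -0.089 at 3 h, and it reversed to -0.100 at 24 h. The bright-only setting was chosen after seeing the data. Signals near the floor limit the dim members.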
